A study of Mus musculus with 12 samples.

Results

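The genes described here are the DNA replication licensing and synthesis genes, 45 genes chosen by name for their known part in copying DNA, out of 52550 genes in the RNA-seq data of 2 mouse mammary tumor cell lines. All 45 passed the filter on low counts, which left 16823 genes for testing. D2A1 and D2.OR are lines of the same mouse mammary tumor type, raised from separate tumors, and D2.OR is used as a model of dormant cancer cells while D2A1 grows out. Each line was cultured for 7 days in 2D, on plastic, or in 3D, on a layer of growth-factor-reduced Matrigel with medium that also held Matrigel. The 4 groups of D2A1 in 2D, D2A1 in 3D, D2.OR in 2D and D2.OR in 3D had 3 replicates each, which made 12 libraries. No group carried an engineered allele or a drug in the labels, and the cells of 10 wells were pooled for the RNA of a line. The sources used here do not settle whether the 2D cultures for RNA had the low-serum medium of the 3D cultures or the serum-rich medium of routine culture, so culture format and medium cannot be told apart. The study asked which genes respond to 3D culture differently in the 2 lines.

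Before a cell copies its DNA, the origin recognition complex, Cdc6 and Cdt1 load the ring-shaped MCM helicase onto origins, a step called licensing that Geminin (Gmnn) blocks once S phase has begun. Cdc45 and the GINS complex then join the ring to make the active helicase, the primase and polymerases copy the strands on the Pcna clamp, and ribonucleotide reductase, thymidylate synthase and thymidine kinase supply the nucleotides. Transcription of many of these genes rises as cells pass from G1 into S phase under E2F factors, so that their summed RNA is widely read as a mark of cycling cells. In RNA from bulk cultures, fewer cycling cells and less of these RNAs per cell cannot be told apart.

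The files of the authors give each gene an expected count and a TPM (a transcript level corrected for the length of the gene and the depth of the library) in each library. The totals of the expected counts ranged from 47589611 to 73325069 per library, with a median of 61747126, and the lowest count of any of the 45 genes in any library was 236. The replicate number is also the batch number, and each batch had a sequencing lane of its own. The reporting summary of the study speaks of biological repeats for its findings in general, while the labels do not say which culture each replicate came from. The p-values measure the spread between these libraries, which may in part be technical. In D2A1, the batch 1 libraries of both cultures stood apart from their groups. Log2 CPM (counts scaled to a common library size) was correlated between libraries over all tested genes. D2A1 2D replicate 1 correlated at 0.9888 with D2A1 3D replicate 1, the library of the other culture in the same batch. Its correlations were 0.9739 and 0.9769 with the other replicates of its own group, which correlated at 0.9896 with each other. With D2A1 3D replicates 2 and 3 they were 0.9609 and 0.9582. D2A1 3D replicate 1 correlated at 0.9722 and 0.9699 within its own group. With D2A1 2D replicates 2 and 3 it correlated at 0.9752 and 0.9787, so more than with its own group. In D2.OR, 2D replicate 1 also correlated most with 3D replicate 1 (0.981), against 0.9772 and 0.9751 within its own group. The labels place it in 2D, and whether that label is right was not tested. The counts of members called in each comparison, and the medians over the members that use D2A1 2D, are therefore given with and without it. As to cell identity, the 6 epithelial markers summed to 94.0 to 297 TPM in the D2A1 libraries, nearly all of it Krt18 (92.7 to 294 TPM), while Epcam, Cdh1, Krt5, Krt8 and Krt14 were each at 2.31 TPM or below there. In D2.OR the sum was 422 to 1720 TPM. The 6 mesenchymal markers summed to 791 to 3160 TPM in D2A1 and 3340 to 7180 TPM in D2.OR. Vim was at 2480 and 3140 TPM in the batch 1 libraries of D2A1 in 2D and 3D and at 733 to 1110 TPM in those of batches 2 and 3, and its part in the batch differences below was not tested. Immune and endothelial markers each summed to at most 0.63 TPM in every library.

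Promoter sequences were looked up for the members with the smallest p for 3D against 2D in D2A1, since E2F binding near the start site is the textbook route by which these genes are switched on together. RefSeq windows on GRCm38.p6, from 250 bases before to 50 bases after the start, were found for 37 of the 45 members. An E2F core, searched as TTCCCGC, then as TTCGCGC, then as TTGCCGC and last as TTGGCGC on either strand, was present in a window of 24 of the 37 (64.9%) and of 10.9% of all 27025 genes with a window. The CCAAT box, searched on both strands, was also present in 24 of the 37, against 41.1% of all genes, and TTTGAA was present in 5 (13.5%), against 20.2%. Below are the windows of Cdt1, Pold2 and Pola2, 3 of the 5 members with the smallest p in D2A1. Gmnn and Gins1, the others, are named only. Each is cut at 30 bases after the start and written 5′ to 3′ on the strand of the gene, with E2F cores and CCAAT boxes in capitals. Cdt1 is at chr8:122567765-122568044 on the plus strand, Pold2 at chr11:5878227-5878506 and Pola2 at chr19:5964177-5964456, both on the minus strand.
Cdt1: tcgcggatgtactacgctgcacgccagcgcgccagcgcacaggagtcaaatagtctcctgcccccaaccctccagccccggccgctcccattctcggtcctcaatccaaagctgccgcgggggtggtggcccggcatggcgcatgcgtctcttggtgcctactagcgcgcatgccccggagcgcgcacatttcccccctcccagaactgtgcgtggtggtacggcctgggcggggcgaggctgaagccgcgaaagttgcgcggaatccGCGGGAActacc
Pold2: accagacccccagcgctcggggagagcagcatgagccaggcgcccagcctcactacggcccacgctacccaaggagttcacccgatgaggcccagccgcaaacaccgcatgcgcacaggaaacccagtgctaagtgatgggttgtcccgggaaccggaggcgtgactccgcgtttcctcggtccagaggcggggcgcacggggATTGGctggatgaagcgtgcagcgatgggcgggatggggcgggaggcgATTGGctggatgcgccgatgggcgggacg
Pola2: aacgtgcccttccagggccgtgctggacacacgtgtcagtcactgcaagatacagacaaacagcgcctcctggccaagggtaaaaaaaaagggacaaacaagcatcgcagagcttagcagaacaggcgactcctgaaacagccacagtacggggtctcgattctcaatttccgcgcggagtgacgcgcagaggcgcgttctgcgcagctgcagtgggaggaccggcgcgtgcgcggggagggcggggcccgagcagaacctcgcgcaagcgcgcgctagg
In Cdt1, E2F cores began 18 and 33 bases after the start, the second of them beyond the stretch shown. The Pold2 window held 3 CCAAT boxes and no E2F core by these letters, with the last box also beyond the stretch shown, and the Pola2 window held neither. The median changes were close with and without an E2F core by these letters. They were not tested, and such letters in a window do not show whether E2F acts on a gene. The median log2-fold change for 3D against 2D in D2A1 was 0.87 over the 24 members with an E2F core and 0.85 over the 13 with a window but no core, and D2.OR against D2A1 in 3D gave medians of -0.83 and -0.95. When D2A1 2D replicate 1 was left out, the medians in D2A1 were 1.41 and 1.28.

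Taken as TPM, the 45 genes together were highest in D2A1 grown in 3D. Their summed TPM was 2563, 1831 and 1756 in D2A1 2D replicates 1 to 3 and 2822, 3677 and 4140 in D2A1 3D. In D2.OR it was 1204, 1690 and 2168 in 2D and 1717, 2401 and 2349 in 3D. D2A1 in 3D lay above every other group in all of its libraries, while the ranges of the other 3 groups overlapped. The mean of the sum was 3546 ± 669 (SD, n = 3) in D2A1 3D, 2050 ± 446 (SD, n = 3) in D2A1 2D, 1687 ± 482 (SD, n = 3) in D2.OR 2D and 2156 ± 381 (SD, n = 3) in D2.OR 3D. Without D2A1 2D replicate 1, the D2A1 2D sums lay within the range of D2.OR 2D. The highest group mean TPM was in D2A1 3D for 44 members and in D2.OR 3D for Rrm1, the large subunit of ribonucleotide reductase. The lowest was in D2.OR 2D for 32 members, in D2A1 2D for 11 and in D2.OR 3D for Rfc1, the large subunit of the clamp loader, and Rpa3, the smallest subunit of the single-strand binding protein RPA. Without D2A1 2D replicate 1, the highest group was the same for 44 and 1 members, but the lowest was D2A1 2D for 26 and D2.OR 2D for 17, so which of these groups was lowest rested on that library. Members differed in how far they moved. The highest library exceeded the lowest by 3.76-fold in TPM for the median member and by 8.85-fold for Rrm2, the regulated small subunit of ribonucleotide reductase. Gins4, a GINS subunit, was nearly level, between 51.7 and 61.6 TPM over all 12 libraries, a ratio of 1.19.

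**Figure D1:**
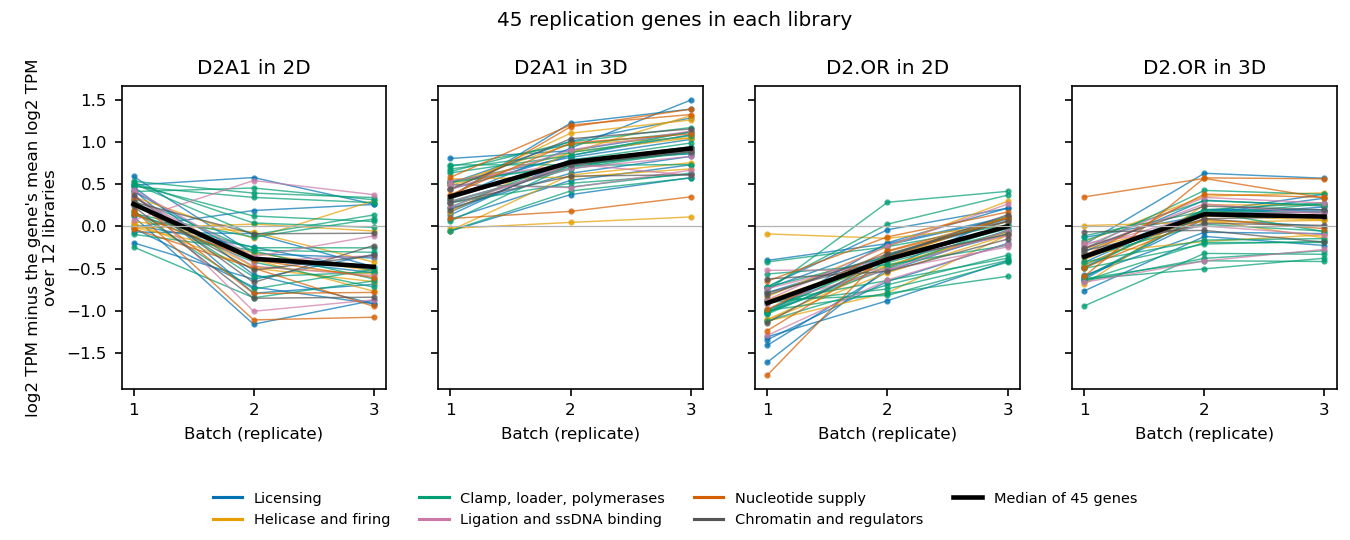
Each thin line is 1 of the 45 genes, with log2 TPM minus that gene's mean over the 12 libraries on the y axis and the batch, which is also the replicate number, on the x axis; colors give the gene's role and the black line is the median. The median of batch 1 lies below batches 2 and 3 in D2A1 3D, D2.OR 2D and D2.OR 3D, and above them in D2A1 2D.

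The batch 1 library lay at the low end for nearly all members in 3 groups and at the high end in D2A1 2D. On the log2 CPM scale, the batch 1 library was the lowest of its group for 45 of 45 members in D2A1 3D (39.9% of all tested genes), for 42 in D2.OR 2D (39.4%) and for 44 in D2.OR 3D (42.1%). In D2A1 2D it was the highest for 41 of 45 (42.0% of all tested genes). In TPM the same counts were 42, 44, 43 and 40, against 29.8%, 40.4%, 33.3% and 40.8% of all tested genes. The size of the difference between groups therefore depended on the batch. For 3D against 2D in D2A1, the median difference over the members on the log2 CPM scale was 0.15, 1.25 and 1.43 in batches 1 to 3, with 38, 45 and 45 members above 0. For D2.OR against D2A1 in 2D it was -1.05, 0.08 and 0.58, so that even its sign differed between batches. For D2.OR against D2A1 in 3D it was -0.79, -0.77 and -0.93, nearly the same in each batch. The part of the D2A1 2D replicate 1 library, as against its batch, in these differences was not tested. As a test of batch 1 against batches 2 and 3 over all groups, edgeR called Cdt1 (log2-fold change -0.56 ± 0.10 SE, adjusted p = 0.0093) and Rpa3 (-0.43 ± 0.09 SE, adjusted p = 0.0155) lower and no member higher, which is 4.44% of the members against 4.8% of all genes lower and 8.48% higher. Leaving out D2A1 2D replicate 1, it called 38 members lower, against 9.3% of all genes.

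In D2A1, every member was higher in 3D than in 2D on average, but few passed the test when all 12 libraries were fitted. Cdt1, Gmnn and Pold2 rose (edgeR quasi-likelihood test, adjusted p under 0.05), which is 6.67% of the 45 against 1.37% of all tested genes, and no member fell (2.12% of all tested genes did). All 45 log2-fold changes were above 0, from 0.17 for Gins4 to 1.63 for Tk1, with a median of 0.85 against 0.0 over all tested genes, and 43 members (95.6%, against 31.4% of all tested genes) had an unadjusted p under 0.05. Every library in 3D lay above every library in 2D for 35 of the 45 members on the log2 CPM scale, against 14.2% of all tested genes, and for 32 in TPM, against 9.56%. In the fit that leaves out D2A1 2D replicate 1, 43 members rose (95.6%, against 15.3% of all tested genes; all but Gins4 and Rpa3), with a median log2-fold change of 1.38. The DESeq2 likelihood-ratio test on all 12 libraries called 36 higher (9.6% of all genes it tested). By contrast, edgeR called 0 members without the replicate block, with only the groups compared, without batch 2 or batch 3, and when any library other than replicate 1 of D2A1 2D or of D2A1 3D was left out.

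Pold2, the second subunit of polymerase delta, was at 152, 138 and 133 TPM in D2A1 2D and at 174, 174 and 195 TPM in D2A1 3D. The groups did not overlap, and Pold2 rose 1.44-fold (log2-fold change 0.53 ± 0.11 SE, edgeR adjusted p = 0.0453). Cdt1, the loading factor of the MCM ring, was at 65.1, 74.7 and 78.5 TPM in 2D and at 73.9, 111 and 126 TPM in 3D. Its 3D library of batch 1 lay within the 2D range and the others above it, and Cdt1 rose 1.49-fold (0.58 ± 0.13 SE, edgeR adjusted p = 0.0489). Gmnn, which encodes Geminin, the inhibitor of Cdt1, was at 36.3, 26.9 and 33.0 TPM in 2D and at 45.6, 71.9 and 75.2 TPM in 3D. All its 3D libraries lay above those in 2D, with the widest gap in batches 2 and 3, and it rose 2.10-fold (1.07 ± 0.24 SE, edgeR adjusted p = 0.0499). These 3 genes were only just past the threshold. Next in order of p was Gins1, a GINS subunit, at 13.3, 10.8 and 9.30 TPM in 2D and 18.1, 28.8 and 32.1 TPM in 3D (log2-fold change 1.25 ± 0.29 SE, edgeR adjusted p = 0.0513). Pola2, the regulatory subunit of polymerase alpha, was at 45.8, 30.1 and 35.4 TPM in 2D and 50.6, 64.5 and 72.5 TPM in 3D (0.84 ± 0.20 SE, edgeR adjusted p = 0.0523). Neither overlapped between the cultures, and neither passed the test.

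By role, the largest changes on the log2 scale were in nucleotide supply and licensing. The 4 nucleotide supply genes (Rrm1, Rrm2, Tyms, Tk1) had a median log2-fold change of 1.25 in D2A1, with Tk1, the salvage kinase for thymidine, at 1.63 ± 0.47 SE. The 11 licensing genes had a median of 1.07, with Orc1, the largest origin recognition subunit, at 1.58 ± 0.44 SE. The 5 genes for strand joining and single-strand binding (Fen1, Lig1, Rpa1, Rpa2, Rpa3) had 0.86, as did Chaf1a, Chaf1b, Uhrf1 and E2f1 as a group. The 7 genes of the active helicase and its firing had 0.85, and the 14 clamp, loader, primase and polymerase genes had 0.71. None of these medians was tested. In the fit that leaves out D2A1 2D replicate 1, they were 1.97 for nucleotide supply, 1.58 for licensing, 1.45 for strand joining and binding, 1.37 for the group of Chaf1a, Chaf1b, Uhrf1 and E2f1, 1.28 for the helicase and firing and 1.08 for the clamp to polymerase genes.

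**Figure D2:**
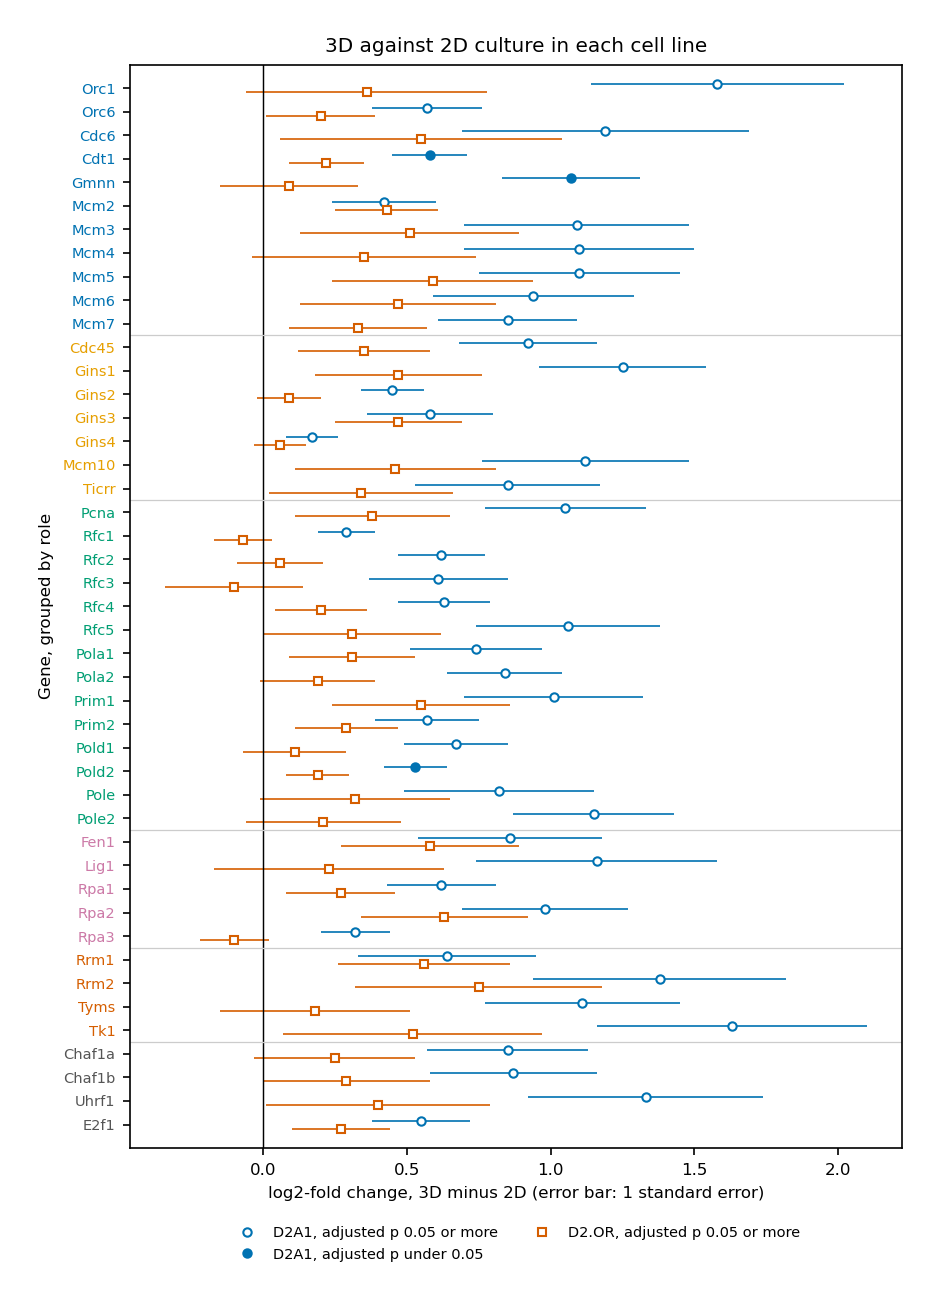
Log2-fold change for 3D minus 2D on the x axis for each of the 45 genes, grouped by role, in D2A1 (blue circles) and D2.OR (orange squares), with bars of 1 standard error and filled symbols for an edgeR adjusted p under 0.05. All circles lie right of 0 and only Cdt1, Gmnn and Pold2 are filled. For all genes but Mcm2 the squares lie nearer to 0, and none is filled.

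Among the 6 subunits of the MCM ring, which are needed in equal number in the loaded helicase, the change in D2A1 was smallest for Mcm2. Mcm2 was at 110, 117 and 94.1 TPM in D2A1 2D and at 113, 138 and 160 TPM in 3D, so that the groups overlapped (log2-fold change 0.42 ± 0.18 SE, edgeR adjusted p = 0.153). Mcm5 was at 94.9, 58.6 and 51.1 TPM in 2D and at 112, 149 and 171 TPM in 3D, without overlap (1.10 ± 0.35 SE, edgeR adjusted p = 0.0813). In batches 2 and 3 its 3D library was far above its 2D library, and in batch 1 the values were close.
Mcm3 was at 75.8, 43.5 and 38.8 TPM in 2D and 80.8, 114 and 138 TPM in 3D. Mcm4 was at 62.1, 26.6 and 28.6 TPM in 2D and 62.4, 82.3 and 97.5 TPM in 3D. Both genes were nearly level between the cultures in batch 1 and far apart in batches 2 and 3. Mcm6 was at 92.3, 49.0 and 47.3 TPM in 2D and 107, 114 and 133 TPM in 3D. Mcm7 was at 102, 85.1 and 70.2 TPM in 2D and 107, 147 and 167 TPM in 3D. The log2-fold changes of Mcm3, Mcm4, Mcm6 and Mcm7 lay between 0.85 and 1.10, and none passed the test (edgeR adjusted p between 0.0659 and 0.106). Pcna, the sliding clamp, was at 214, 113 and 133 TPM in D2A1 2D and at 232, 306 and 358 TPM in 3D, a change of 1.05 ± 0.28 SE (edgeR adjusted p = 0.0608) with no overlap. When D2A1 2D replicate 1 was left out, Mcm2 to Mcm7 and Pcna all rose, by 0.67 for Mcm2 and by 1.27 to 1.88 for the others.

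In D2.OR, the values of these genes overlapped between 2D and 3D. Mcm3 was at 21.4, 39.3 and 55 TPM in D2.OR 2D and at 36.8, 62.9 and 63.9 TPM in 3D. Mcm4 was at 23.2, 36.4 and 47.9 TPM in 2D and at 34.3, 52.8 and 52.1 TPM in 3D. In both, the 3D library of batch 1 lay below the 2D libraries of batches 2 and 3. Mcm5 was at 47.4, 84.3 and 112 TPM in 2D and at 83.1, 149 and 143 TPM in 3D. Mcm6 was at 24.2, 39.0 and 53.3 TPM in 2D and at 40.5, 65.0 and 61.2 TPM in 3D. Their batch 1 libraries were again the lowest of each culture. Mcm7 was at 60.6, 86.5 and 108 TPM in 2D and at 81.9, 125 and 119 TPM in 3D. Pcna was at 115, 147 and 189 TPM in 2D and at 175, 214 and 212 TPM in 3D. Each of the 6 genes was higher in 3D within every batch, and none passed the test.

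**Figure D3:**
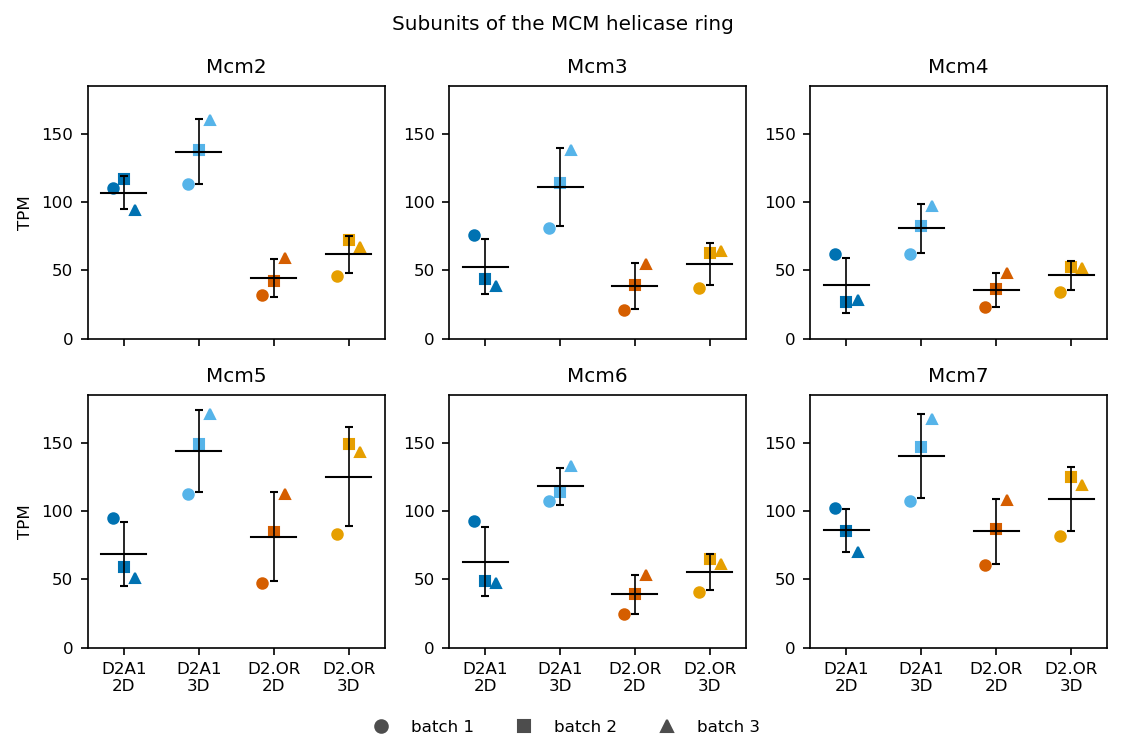
TPM of the 6 MCM subunits on a linear y axis from 0, by group on the x axis, with circles, squares and triangles for batches 1, 2 and 3, a line for the mean and bars for 1 SD (n = 3). Mcm2 in D2.OR lies below every D2A1 library, while Mcm5 and Mcm7 in D2.OR lie within or close to the D2A1 range.

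In D2.OR, most members were also higher in 3D on average, and no member passed the test. edgeR called 0 of 45 (background 1.62% of all tested genes), as did DESeq2 and limma, and only Mcm2 had an unadjusted p under 0.05 (2.22%, against 17.6% of all tested genes). The log2-fold changes were above 0 for 42 of 45, with a median of 0.31 and a range from -0.10 for Rfc3 and Rpa3, subunits of the clamp loader and of RPA, to 0.75 for Rrm2. The 3D libraries lay above all 2D libraries for 1 member on the log2 CPM scale (Rrm1; 10.2% of all tested genes) and for 2 in TPM (Rrm1 and Rpa1; 13.0%). Mcm2 was at 31.7, 42.6 and 59.0 TPM in D2.OR 2D and at 46.2, 72.2 and 67.0 TPM in 3D. The groups overlapped, and its change was 0.43 ± 0.18 SE (edgeR adjusted p = 0.273). Rpa2, the middle subunit of RPA, was at 11.3, 17.8 and 23.9 TPM in 2D and at 23.2, 30.6 and 31.1 TPM in 3D, a change of 0.63 ± 0.29 SE (edgeR adjusted p = 0.292). Its groups overlapped only through the batch 1 library in 3D. The flap nuclease gene Fen1 was at 17.6, 23.3 and 32.1 TPM in 2D and at 28.3, 42.2 and 40.3 TPM in 3D (0.58 ± 0.31 SE, edgeR adjusted p = 0.377), with overlap. Rrm1 was at 52.1, 74.9 and 91.8 TPM in 2D and at 104, 121 and 103 TPM in 3D. Its groups did not overlap, and its change was 0.56 ± 0.30 SE (edgeR adjusted p = 0.375). Gins3, a GINS subunit, was at 4.36, 5.50 and 8.84 TPM in 2D and at 7.89, 10 and 8.63 TPM in 3D (0.47 ± 0.22 SE, edgeR adjusted p = 0.303), and its values overlapped. Within batches the median difference over the members was 0.40, 0.46 and 0.13. In the fit without D2A1 2D replicate 1, which leaves the D2.OR libraries as they were and in which the standard errors were smaller (0.12 against 0.30 for Rrm1), 6 members rose in D2.OR (13.3%, against 1.76% of all tested genes), among them Rpa2, Fen1 and Rrm1. In these D2.OR 3D libraries the adipocyte markers summed to 8.45 to 77.1 TPM, against 3.07 or below in every other library, and their part in the values above was not tested. Most of that sum was Plin1 (6.33, 75.0 and 21.5 TPM). Lep made up 1.96 of the 8.45 TPM in replicate 1 and was highest in D2.OR 2D replicate 1 (2.92 TPM), and Adipoq reached 2.03 TPM in D2.OR 3D.

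The interaction subtracts the D2A1 change from 2D to 3D from the D2.OR change and asks whether the lines differ in their response. It was below 0 for 44 of 45 members, with a median of -0.52 against -0.01 over all tested genes. With all 12 libraries edgeR called 0 members (background 0.0238%), DESeq2 and limma called 0, and 6 members (13.3%, against 17.8% of all tested genes) had an unadjusted p under 0.05. The smallest p was that of Gmnn (log2 difference -0.98 ± 0.34 SE, edgeR adjusted p = 0.2). In D2.OR, Gmnn was at 25.3, 40.4 and 48.2 TPM in 2D and at 29.7, 47.5 and 47.6 TPM in 3D, almost the same, against the rise in D2A1 given above. Pole2, the second subunit of polymerase epsilon, was at 9.87, 6.51 and 7.47 TPM in D2A1 2D, 12.2, 19.3 and 19.4 in D2A1 3D, 7.11, 11.9 and 15.1 in D2.OR 2D and 9.73, 15.7 and 15.2 in D2.OR 3D. Its TPM was higher in 3D in every batch of both lines, without overlap between the cultures in D2A1 and with overlap in D2.OR (log2 difference -0.94 ± 0.39 SE, edgeR adjusted p = 0.26). The clamp loader subunit Rfc2 was at 81.8, 62.5 and 62.4 TPM in D2A1 2D, 90.3, 106 and 114 in D2A1 3D, 55.6, 63.0 and 75.4 in D2.OR 2D and 58.0, 75.7 and 71.6 in D2.OR 3D, a log2 difference of -0.56 ± 0.22 SE. Rfc1 (-0.36 ± 0.14 SE) and Rpa3 (-0.42 ± 0.17 SE) completed the 5 with the smallest p.

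The interaction depended on batch 1 and on a single library in it. The median difference within batches over the members was 0.32, -0.69 and -1.28 in batches 1 to 3, with 33, 1 and 0 members above 0. Without D2A1 2D replicate 1, 38 members passed the test, all below 0 (84.4%, against 8.08% of all tested genes), with a median of -1.0. Of these 38, 33 also passed when the whole of batch 1 was left out. Those that did not pass without that replicate were E2f1, Gins3, Gins4, Mcm2, Orc6, Rpa3 and Rrm1. In that fit Tk1 had a log2 difference of -2.01 ± 0.18 SE and Orc1 of -2.06 ± 0.19 SE. The contrasts of 3D against 2D in D2A1, of the lines in 2D and of the interaction all use the D2A1 2D libraries, so these movements are not independent of each other.

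**Figure D4:**
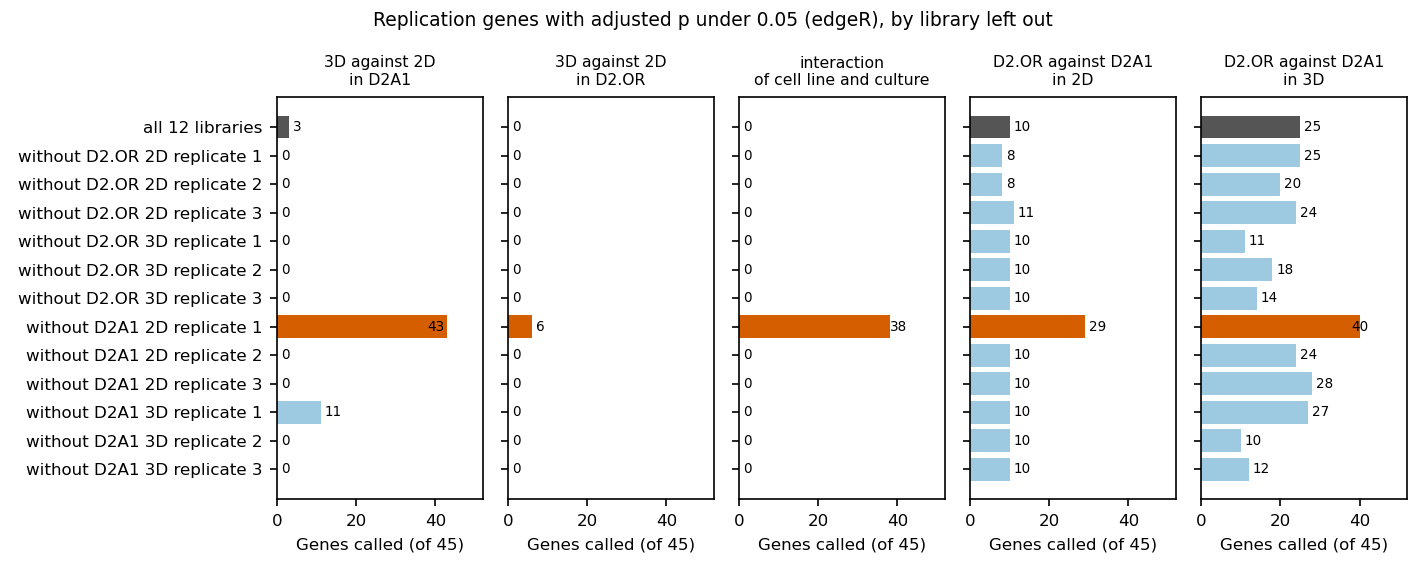
Number of the 45 genes with an edgeR adjusted p under 0.05 (x axis, bars from 0) in each of 5 comparisons, for all 12 libraries (grey) and with each library left out in turn; the bar without D2A1 2D replicate 1 is orange. Leaving out that library takes the counts from 3 to 43, 0 to 6, 0 to 38, 10 to 29 and 25 to 40.

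Between the lines in 2D, 10 members were lower in D2.OR than in D2A1 and none was higher (edgeR adjusted p under 0.05). The share lower, 22.2%, was close to the 24.4% of all tested genes that were lower, whereas 25.4% of all tested genes were higher. The 10 were Cdt1, Gins3, Mcm2, Pola1, Pola2, Pold2, Prim2, Rfc1, Rfc4 and Rpa3, which include Pola1 and Pola2 of polymerase alpha and the large primase subunit Prim2. The median over all 45 was -0.20, and 11 members (24.4%, against 56.1% of all tested genes) had an unadjusted p under 0.05. Pold2 was at 57.4, 59.6 and 78.2 TPM in D2.OR 2D, below each of the D2A1 2D libraries given above (log2-fold change -1.01 ± 0.11 SE, edgeR adjusted p = 0.000107). Rfc4, a clamp loader subunit, was at 47.5, 48.9 and 44.4 TPM in D2A1 and 17.9, 20.6 and 23.7 TPM in D2.OR (-1.07 ± 0.16 SE, edgeR adjusted p = 0.000654). The clamp loader gene Rfc1 was at 62.9, 57.5 and 55.1 TPM in D2A1 and 30.7, 33.1 and 38.8 TPM in D2.OR (-0.71 ± 0.10 SE, edgeR adjusted p = 0.000466). None of these 3 genes overlapped between the lines. Mcm2 differed the most in size, at -1.20 ± 0.19 SE (edgeR adjusted p = 0.000763), and also did not overlap. Rpa3 was at 52.3, 72.3 and 64.4 TPM in D2A1 and 29.8, 38.2 and 45.9 TPM in D2.OR (-0.60 ± 0.12 SE, edgeR adjusted p = 0.00273), without overlap. In all, 9 of the 45 members were lower without overlap on the log2 CPM scale, against 25.6% of all tested genes, and 10 in TPM, against 30.7%. When D2A1 2D replicate 1 was left out, 9 of the 10 remained lower (all but Gins3; 24.6% of all tested genes were lower), while 20 members were now higher in D2.OR (44.4%, against 26.7%), among them Pcna, Tk1, Rrm1, Rrm2, Tyms, Mcm4, Mcm5 and Mcm7. The median over the members then was 0.34. For Pcna, for example, D2.OR 2D was at 115, 147 and 189 TPM, and the difference went from 0.07 ± 0.28 SE with all libraries to 0.58 ± 0.10 SE without that replicate (edgeR adjusted p of 0.841 and 0.00218).

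**Figure D5:**
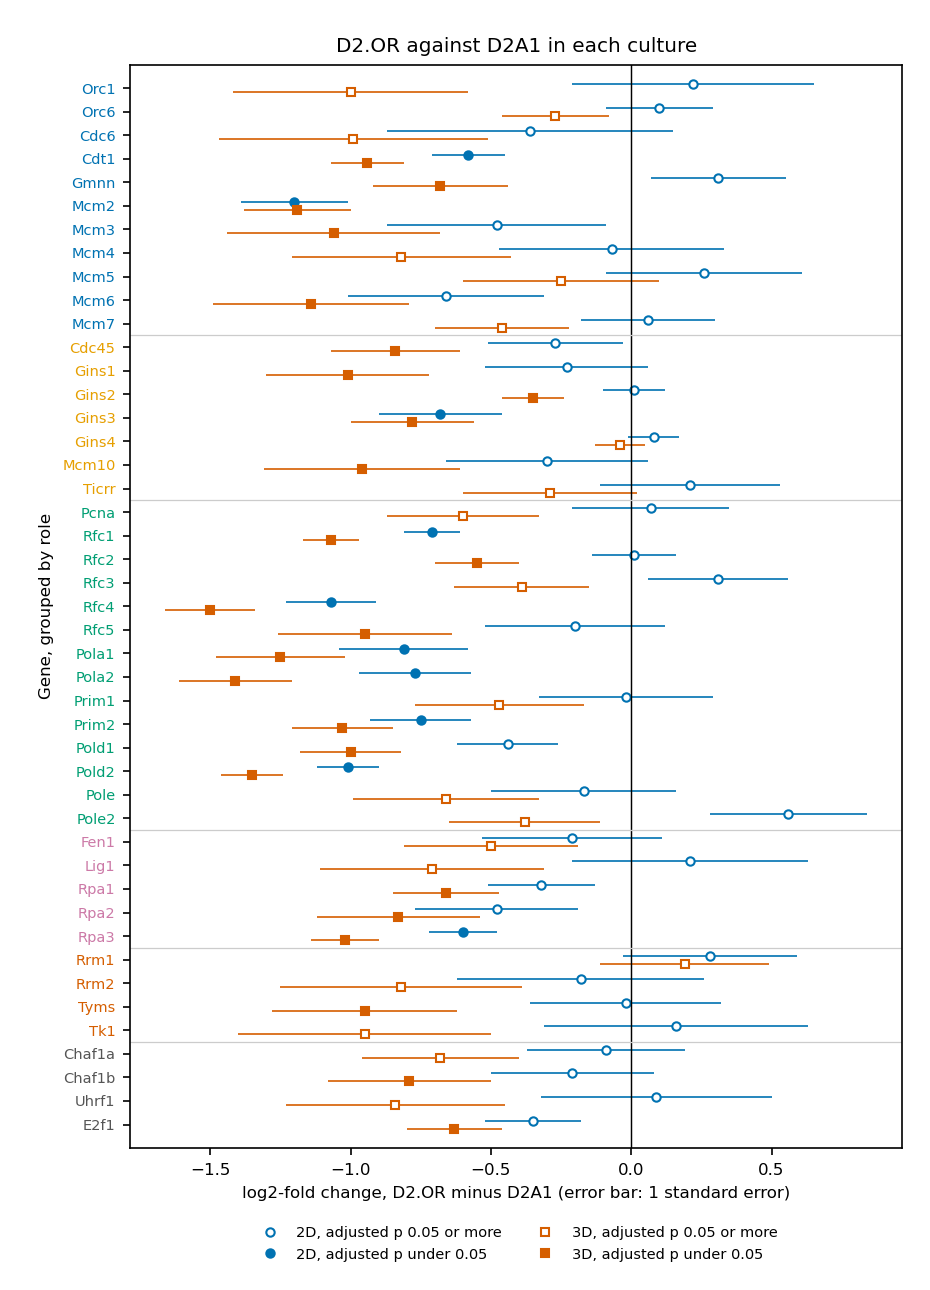
Log2-fold change for D2.OR minus D2A1 on the x axis for each of the 45 genes, grouped by role, in 2D (blue circles) and in 3D (orange squares), with bars of 1 standard error and filled symbols for an edgeR adjusted p under 0.05. In 3D all genes but Rrm1 lie left of 0 and 25 are filled; in 2D the circles lie on both sides and 10 are filled, all left of 0.

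Between the lines in 3D, 25 members were lower in D2.OR and none was higher (55.6% of the 45, against 26.1% of all tested genes that were lower and 27.7% that were higher). All 10 members lower in 2D were among them. An unadjusted p under 0.05 was found for 27 members (60.0%, against 59.9% of all tested genes). The members thus differed about as often as other genes, and their direction was one-sided. The log2-fold change was below 0 for 44 of 45, with a median of -0.82 against 0.0 over all tested genes, and only Rrm1 lay above 0 (0.19 ± 0.30 SE, edgeR adjusted p = 0.607). The D2.OR libraries lay below all D2A1 libraries for 29 members on the log2 CPM scale, against 30.2% of all tested genes, and for 32 in TPM, against 28.3%. Pold2 was at 68.2, 74.1 and 80.9 TPM in D2.OR 3D, less than the 174 to 195 TPM of D2A1 3D (-1.35 ± 0.11 SE, edgeR adjusted p = 1.92e-05). The largest difference was in Rfc4, at 58.4, 69.8 and 77.2 TPM in D2A1 and 18.6, 28.6 and 28.4 TPM in D2.OR (-1.50 ± 0.16 SE, edgeR adjusted p = 9.23e-05). Rfc1 was at 63.9, 62.6 and 70.2 TPM in D2A1 and 29.5, 34.2 and 34.0 TPM in D2.OR (-1.07 ± 0.10 SE, edgeR adjusted p = 4.17e-05). Rpa3 was at 58.3, 83.0 and 75.4 TPM in D2A1 and 31.4, 37.4 and 41.1 TPM in D2.OR (-1.02 ± 0.12 SE). Rfc4, Rfc1 and Rpa3 did not overlap between the lines. Cdt1 was at 43.9, 62.5 and 61.8 TPM in D2.OR 3D, below each D2A1 3D library (-0.94 ± 0.13 SE, edgeR adjusted p = 0.000379). In D2.OR 2D it was at 32.5, 47.2 and 61.7 TPM.

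By role, the clamp, loader, primase and polymerase genes were lower in D2.OR 3D for 9 of 14, the helicase and firing genes for 5 of 7, the licensing genes for 5 of 11 (Cdt1, Gmnn, Mcm2, Mcm3 and Mcm6), the strand joining and binding genes for 3 of 5 and nucleotide supply for 1 of 4 (Tyms, thymidylate synthase). Of the last group of 4, Chaf1b, a subunit of the chromatin assembly factor, and E2f1, a transcription factor that acts on this set, were lower. Mcm4, Mcm5 and Mcm7 did not pass in 3D, at -0.82 ± 0.39, -0.25 ± 0.35 and -0.46 ± 0.24 (SE). Without D2A1 2D replicate 1, whose value enters this contrast only through the shared spread and batch terms, 40 members were lower (88.9%, against 29.4% of all tested genes) with a median of -0.83. Those were 14 of 14 clamp to polymerase genes, 5 of 7 for helicase and firing, 9 of 11 for licensing, 5 of 5 for strand joining and binding, 3 of 4 for nucleotide supply and 4 of 4 in the last group. Mcm4 (-0.83 ± 0.09 SE, edgeR adjusted p = 0.000131) and Mcm7 (-0.46 ± 0.09 SE, edgeR adjusted p = 0.00342) then passed, and Mcm5 did not (-0.27 ± 0.13 SE, edgeR adjusted p = 0.105). The count also moved down, to 11 and 14 when replicate 1 or replicate 3 of D2.OR 3D was left out, and to 10 and 12 when replicate 2 or replicate 3 of D2A1 3D was.

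The ratio between some members also lay apart between the lines, which was noticed after the values were seen and is given without a test. In TPM, Mcm2 exceeded Mcm5 in D2A1 2D by ratios of 1.16, 2.0 and 1.84 and was near to it in D2A1 3D, at 1.01, 0.926 and 0.935. In D2.OR the ratio was 0.668, 0.506 and 0.524 in 2D and 0.555, 0.485 and 0.469 in 3D. No D2.OR library reached the lowest D2A1 library. The ratio of Gmnn to Cdt1, the licensing inhibitor and its target, was 0.558, 0.361 and 0.421 in D2A1 2D and 0.617, 0.649 and 0.597 in D2A1 3D. It was 0.779, 0.856 and 0.782 in D2.OR 2D and 0.678, 0.759 and 0.771 in D2.OR 3D. Every D2.OR library thus lay above every D2A1 library, and within D2A1 the cultures did not overlap. Mcm2 over the mean of Mcm3 to Mcm7 was 1.13 to 2.23 in D2A1 and 0.747 to 0.896 in D2.OR, so it did not overlap either. The remaining ratios computed alongside did overlap between the lines. Rfc4 over Rfc5 was 0.856 to 1.79 in D2A1 and 0.571 to 0.886 in D2.OR, and Gins4 over Gins1 was 1.92 to 5.91 in D2A1 and 3.68 to 8.62 in D2.OR.

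A further list of 57 replication genes outside the 45, such as other origin recognition, polymerase and fork protection subunits, was tested in the same fit. For D2.OR against D2A1 in 3D, 29 of 57 were lower and 4 higher (50.9% and 7.02%), and in 2D 17 were lower and 6 higher (29.8% and 10.5%). Of all tested genes, 26.1% were lower and 27.7% higher in 3D, and 24.4% were lower and 25.4% higher in 2D. Without D2A1 2D replicate 1, 42 were lower and 5 higher in 3D (73.7% and 8.77%, against 29.4% and 30.1% of all tested genes), and 15 lower and 15 higher in 2D (26.3% each, against 24.6% and 26.7%, so close to the background). The smallest p in both was that of Rnaseh2a, the catalytic subunit of ribonuclease H2, which was lower in D2.OR by log2-fold changes of -1.0 ± 0.09 SE in 2D and -0.96 ± 0.09 SE in 3D. Recql4, a helicase of the RecQ family, was next in 2D (-1.28 ± 0.15 SE), and E2f2, an E2F factor, was next in 3D (-2.02 ± 0.24 SE). For 3D against 2D in D2A1, edgeR called 1 of the 57 higher (1.75%, against 1.37% of all tested genes). That was Dtymk, thymidylate kinase (0.91 ± 0.17 SE, edgeR adjusted p = 0.0359), and Tipin, a fork protection protein, came next (0.83 ± 0.21 SE, edgeR adjusted p = 0.0585). DESeq2 called 23 higher (9.6% of all genes it tested were). In edgeR, 35 of the 57 had an unadjusted p under 0.05 (61.4%, against 31.4% of all tested genes). In D2.OR and for the interaction, edgeR called 0 of the 57, and DESeq2 called 1 in each. An unadjusted p under 0.05 was found for 2 of the 57 in D2.OR (3.51%, against 17.6% of all tested genes) and for 6 in the interaction (10.5%, against 17.8%). The smallest p values were those of Top1 (-0.35 ± 0.10 SE) and Recql4 (0.38 ± 0.15 SE) in D2.OR, and of Pold3 (-0.56 ± 0.15 SE) and Dtymk (-0.70 ± 0.24 SE) for the interaction. In the fit without that replicate, 38 of the 57 rose and 2 fell in D2A1 3D (66.7% and 3.51%, against 15.3% and 15% of all tested genes). In D2.OR, 3 of the 57 rose in that fit (5.26%, against 1.76% of all tested genes). The interaction passed below 0 for 25 and above 0 for 1 (43.9% and 1.75%, against 8.08% and 6.41%).

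Some values rest on reads that could be shared. Exons of 16 members overlap those of another gene in the GENCODE M21 annotation, 14 of them on the opposite strand, and the sources used here do not say whether reads were counted by strand. Mcm7 shares its locus with the microRNA genes Mir25 and Mir93. Pcna-ps2, by its name a pseudogene of Pcna but labeled protein coding, is listed at up to 5.38 TPM. Of the expected counts of the 45 genes, 27.0% were not whole, so reads were divided among genes or copies.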

How the data were processed

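RNA from the 12 libraries was measured by RNA-seq. Per the labels, the tools used by the authors were FastQC 0.11.4, Trimmomatic 0.32 for trimming, STAR 2.5.3 for alignment to GRCm38 and RSEM 1.3.0 for counting. The expected counts deposited by the authors are not normalized and need not be whole, and they were rounded here. The TPM deposited by the authors are corrected for gene length and for depth, which they no longer show. TPM in the library files and in the table of the whole series were equal.

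All 12 libraries entered a single edgeR 4.0.16 quasi-likelihood fit in R 4.3.3, with a term for each group, a block for the batch, TMM scaling and the default low-count filter of edgeR. P-values were Benjamini-Hochberg adjusted over all 16823 genes, with 0.05 as the threshold. The common biological coefficient of variation was 21.2%. SE is the size of the log2-fold change divided by the root of its F statistic, and within-batch differences are on a log2 CPM scale with a prior count of 2. The replicate number is the batch of the labels. As a check, deviations from group means correlated at 0.0758 to 0.511 over 18 same-numbered pairs (median 0.267) and at a median of -0.195 over the others. On counts simulated for 3D against 2D in D2A1 over 16823 genes, of which 200 were changed, 55% of 2-fold and 83% of 4-fold changes were recovered.

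Values per library are given for Mcm2 to Mcm7, Pcna and the 5 members with the smallest p in each comparison of lines or cultures and in the interaction; other members are given by role, and of the 57 further genes the 2 with the smallest p in each of these. Cell markers were summed as TPM. The members and lists were chosen with earlier results of these data known. Alternatives were DESeq2 1.42.0, limma 3.58.1 on log2(TPM + 1) and log2(TPM + 0.1), DESeq2's size factors or library totals alone in place of TMM, a minimum of 10 counts per library or no minimum, fits of the compared groups alone, no block, and each library or batch left out. Tables were made with pandas 2.3.3 in Python 3.11.15.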

Additional observations from a re-analysis of the deposited data

How the results depend on the processing

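The number of the 45 genes called depended on the libraries used. For 3D against 2D in D2A1 it went from 3 to 36 with DESeq2, 6 with DESeq2's size factors, 8 with at least 10 counts in every library, 10 with limma on log2(TPM + 0.1), 12 with no filter, 0 without the replicate block, 0 with only the groups compared, 43 without batch 1, and 0 without batch 2 or batch 3. With each library left out it ranged from 0 to 43. It was 0 without any of the 6 D2.OR libraries or without replicate 2 or 3 of D2A1 in either culture, 11 without D2A1 3D replicate 1 and 43 without D2A1 2D replicate 1. For D2.OR against D2A1 in 3D it went from 25 to 42 with only the groups compared, 40 without batch 1 and 10 without batch 2 or batch 3, and ranged from 10 to 40 with each library left out. In 2D it went from 10 to 28 without batch 1 and 4 without batch 2, and ranged from 8 to 29. For 3D against 2D in D2.OR it went from 0 to 2 with only the groups compared and 1 without batch 1, and ranged from 0 to 6. For the interaction it went from 0 to 34 without batch 1, and ranged from 0 to 38. For batch 1 against batches 2 and 3 it went from 2 to 5 with DESeq2 and 0 without batch 2 or batch 3, and ranged from 1 to 38, with 1 called when D2A1 3D replicate 1 was left out, 7 when D2A1 2D replicate 3 was and 38 when D2A1 2D replicate 1 was. The median log2-fold change of D2.OR against D2A1 in 2D changed sign, from -0.20 to 0.32 without batch 1, to 0.05 without D2.OR 2D replicate 1 and to 0.34 without D2A1 2D replicate 1, and was -0.48 without D2A1 2D replicate 3, -0.55 without batch 3, -0.34 without batch 2, -0.37 without D2.OR 2D replicate 3, -0.39 without D2A1 2D replicate 2, -0.13 without the replicate block and -0.11 with only the groups compared. With library totals in place of TMM, the median over the members was -0.36 in 2D and -0.92 in 3D, while that over all tested genes moved to -0.17 and -0.10. Without the replicate block the other counts were 8 for the lines in 2D, 24 in 3D, and 0 for D2.OR and for the interaction. The causes were not tested, except that leaving out libraries also leaves fewer to estimate the spread. For 85 pairs of a gene and a comparison (Mcm2 to Mcm7 and Pcna, the 5 smallest p and the genes called), 1717 values under the alternatives kept their direction and side of the threshold, 170 lost and 90 gained significance, and 36 changed sign. Of these 36, 25 were for the lines in 2D. There Mcm3 went from -0.48 to 0.30 without batch 1 and Mcm6 from -0.66 to 0.03 without batch 1. Mcm4 went from -0.07 to 0.08 with only the groups compared and 0.73 without batch 1. Mcm5 went from 0.26 to -0.19 without batch 3. Mcm7 went from 0.06 to -0.10 with library totals, -0.04 and -0.03 with limma on log2(TPM + 0.1) and log2(TPM + 1), -0.04 without batch 2 and -0.25 without batch 3, and Pcna from 0.07 to -0.09, -0.00, -0.00, -0.12 and -0.19 under the same alternatives. With single libraries left out, the values ranged from -0.88 to 0.23 for Mcm3, -0.43 to 0.69 for Mcm4, -0.11 to 0.90 for Mcm5, -0.20 to 0.47 for Mcm7 and -0.16 to 0.58 for Pcna. The other 11 were the interaction of Mcm2, which went from 0.00 to -0.02 with no filter, -0.04 without the replicate block, -0.20 without batch 1, -0.14 without batch 2 and -0.25 to 0.23 with single libraries left out. Over all 45 genes, up to 16 changed sign for the lines in 2D (15 without D2A1 2D replicate 1, 16 without batch 1, 8 with library totals), up to 1 for the lines in 3D, 4 for 3D against 2D in D2.OR, 0 in D2A1 and 7 for the interaction, and 0 of those genes had been called. The lowest count of any member in any library was 236, and the part of depth in the calls was not tested. With 3 replicates a group, a call that was not made does not show that a gene did not change. In the simulation, 55% of the 2-fold changes were recovered. Its changed genes were drawn from all tested genes and given the spread typical of their level. That share therefore does not describe the 45 genes.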
